A study of Homo sapiens with 20 samples.

Results

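The arrays described here asked what doxycycline does by itself to the transcripts of HEK293 cells that carry no inducible transgene. They are 10 of the 20 Affymetrix U133 Plus 2.0 arrays of the series, chosen by their labels: 5 arrays of parental cells given 1 μg/ml doxycycline for 16 h and 5 of parental cells given the same volume of sterile water. Both groups were Flp-In T-REx HEK293 cells, an established line from human embryonic kidney that already contains the Tet repressor used for inducible expression. The study repeated the treatment on 5 different days as pairs of treated and untreated flasks, and it served as the control for a derived line in which doxycycline switches on a fusion of green fluorescent protein with the RNA-decay protein ZFP36 (the EGFP-ZFP36 line, the other 10 arrays). Of 19353 genes with a probe set of their own, the 10267 (53.1%) whose mean exceeded 4.5 on the log2 scale in at least 1 of the parental groups were tested. Every level below is a log2 value normalized with GCRMA, every difference is doxycycline minus vehicle on that scale, and a difference of 1 is a doubling.

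Doxycycline belongs to the tetracyclines, which block protein synthesis by binding the small subunit of the bacterial ribosome. Mitochondria descend from bacteria and keep ribosomes of their own that translate the few proteins encoded by mitochondrial DNA, so tetracyclines can also reduce mitochondrial translation. In human cells, impaired mitochondrial translation is known to change the balance of nuclear-encoded and mitochondrially encoded respiratory chain subunits and to switch on the integrated stress response, the programme of the transcription factor ATF4. Transcript levels do not measure protein synthesis.

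Transcripts listed for cell types and the arrays themselves were looked at first. Of 8 transcripts listed for HEK293 cells, 6 exceeded 4.5 on at least 1 parental array, the highest being CTNNB1 at 14.5. So did 3 of 20 fibroblast and endothelial transcripts, of which the collagen gene COL1A1 was the highest at 8.78. The HEK293 list is not specific to these cells, so its count does not establish their identity. None of 19 blood cell markers exceeded 4.5, the highest being CD79B at 3.25. Vehicle arrays 3 and 4 lay at opposite ends of the first principal component, which held 26.5% of the variance, with scores of 16.8 and −18.5. Their spiked poly-A controls were also the lowest of the 10 arrays, at 7.07 and 7.24. Some of the results below are also given without vehicle arrays 3 and 4 or with array weights. In 7 array measures, which included the share of probe sets at the lowest value, the spiked controls and the 3′ to 5′ signal of actin and GAPDH, the groups gave exact two-sided permutation p-values of 0.143 to 0.873 (Benjamini-Hochberg adjusted p = 0.873 for each, over 7 measures).

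Across the 10267 tested genes, the levels with doxycycline and with vehicle were close. The median difference was −0.00, the SD of the differences over genes was 0.10, and 14 genes differed by more than 1.5-fold, of which 2 differed by more than 2-fold. No gene passed the study's threshold of a Bonferroni-adjusted p under 0.01 in limma (0 genes, 0.0%), nor a Benjamini-Hochberg adjusted p under 0.05 (0 genes, 0.0%). At an unadjusted p under 0.05, limma counted 212 genes (2.06%), with 66 higher (0.643%) and 146 lower (1.42%), and the same fit without moderation counted 213. If no gene differed, such a threshold would pass a share of about 0.05 on average, so the 212 genes are not more than chance would give. The smallest unadjusted p was 0.000556, and the adjusted p was 1.0 for every gene by both methods. The 5 doxycycline and the 5 vehicle values did not overlap in 21 genes (0.205%), with 8 higher and 13 lower.

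How large a change the arrays could have missed was read from limma's 95% interval of each difference. The median half-width was 0.17, equal to 1.13-fold. The whole interval lay within 25% of equality (from 20% lower to 25% higher) in 7855 genes (76.5%), within 1.5-fold either way in 9757 (95%) and within 2-fold in 10208 (99.4%). Intervals widened to hold for all genes at once lay within 1.5-fold in 3010 genes (29.3%) and within 2-fold in 7974 (77.7%). To pass the Bonferroni threshold with its own spread, a gene of median precision would have needed a difference of 0.77, or 1.70-fold, and a gene at the 95% point would have needed 1.81, or 3.50-fold. The widest interval reached 3.87-fold, in the translation initiation gene EIF3C. These intervals hold the spread between arrays only and apply to the brightest probe set of each gene. GCRMA sets the arrays to a common distribution, so a shift shared by all transcripts would not appear in them.

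Precision followed the level. Among 1086 genes with a mean level from 4 to 6 the median half-width was 0.30, and 75.0% had intervals within 1.5-fold. Among 2076 genes from 6 to 8 it was 0.23 (93.6%), among 3064 from 8 to 10 it was 0.17 (97.8%), and among 2687 from 10 to 12 it was 0.15 (98.8%). Among the 1354 genes above 12 it was 0.13, with 99.5% within 1.5-fold. The share of genes at an unadjusted p under 0.05 declined along the same order, from 6.08% at levels from 4 to 6 to 0.222% above 12. The filter asked for 1 group mean only, so genes near it could enter through their higher group, which selects for differences at the lowest levels. How much this adds to the 6.08% was not tested. At levels clear of the filter the share still declined, from 3.52% at 6 to 8 to 1.73% at 8 to 10. Of the 59 genes whose intervals reached 2-fold, 33 had a mean level under 6.

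**Figure D1:**
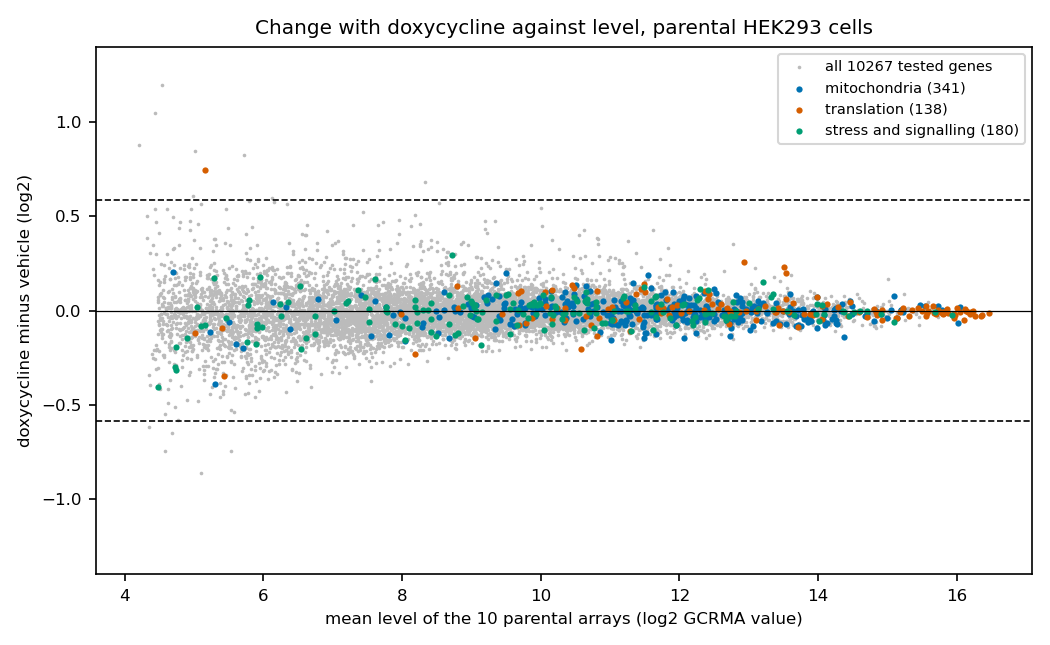
Difference between doxycycline and vehicle (log2, y axis) against the mean level of the 10 parental arrays (log2 GCRMA value, x axis) for all 10267 tested genes, with members of the mitochondrial (341), translation (138) and stress and signalling (180) lists in colour and dashed lines at 1.5-fold. The cloud narrows with level, and EIF3C, at 0.74, is the only coloured point past a dashed line.

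**Figure D2:**
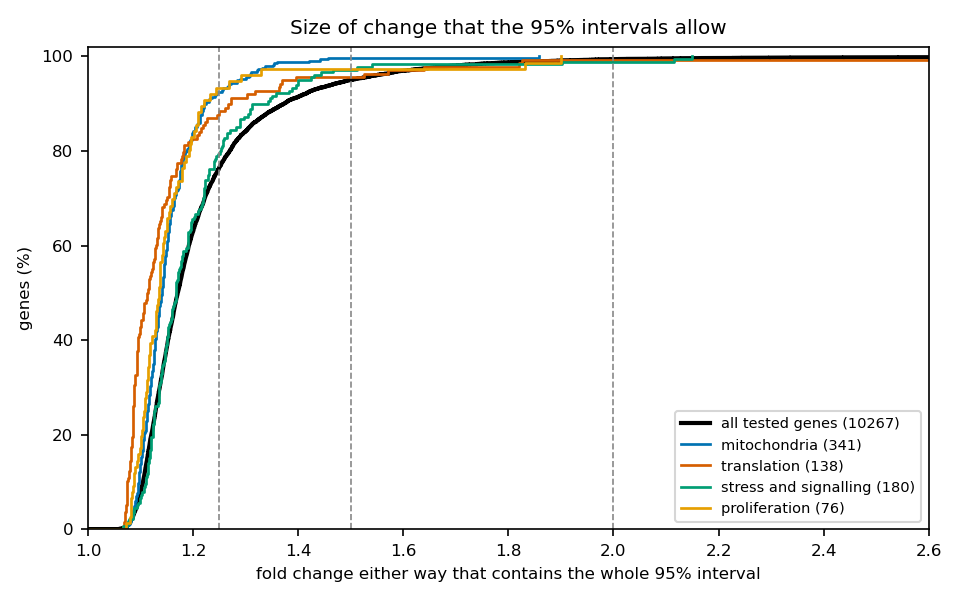
Share of genes (%, y axis) whose whole 95% interval lies within a given fold change either way (x axis, shown to 2.6-fold), for all tested genes and for the members of 4 classes of lists, with dashed lines at a rise of 25% and at 1.5 and 2-fold. At 1.5-fold the line for all genes reaches 95%, and at 25% it reaches 76.5%.

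The mitochondrial genes were grouped in 14 lists with 341 tested members, and none of these genes passed either adjusted threshold. At an unadjusted p under 0.05, 2 were higher and 2 were lower, where 0.643% and 1.42% of all tested genes were. The median difference was −0.00 both over the 341 genes and over all tested genes. The interval lay within 25% in 315 of them, within 1.5-fold in 340 and within 2-fold in all 341. The exception at 1.5-fold was TBRG4, a regulator of mitochondrial RNA whose probe set read 5.10 and 5.50, with a difference of −0.39 and an interval that reached 1.86-fold.

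Transcripts encoded by mitochondrial DNA itself are the templates of the ribosome that tetracyclines bind. Of 15 such genes on the list, 6 had a probe set of their own, and their median difference was 0.01, with intervals that reached at most 1.36-fold. The median level of these genes was 15.6, near the top of the scale where arrays compress changes. At such levels the intervals bound the array values, and changes of the transcripts themselves could be larger by an amount not measured here. MT-ND2, a complex I subunit, read 15.07, 14.91, 15.07, 15.44 and 15.20 with doxycycline and 14.95, 15.07, 14.98, 15.17 and 15.13 with vehicle, a difference of 0.08 (SE 0.09). MT-ND6, the complex I subunit encoded on the opposite strand, differed by −0.08 (SE 0.16). MT-ATP6, a subunit of ATP synthase, differed by −0.07 (SE 0.07). The groups overlapped in all 3.

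The 77 tested proteins of the mitochondrial ribosome, all of them encoded in the nucleus, had a median difference of −0.00, and 41 of the 77 lay below 0 (53.2%, against 52.1% of all tested genes). That share ran from 40.3% to 79.2% with 1 array left out, the highest without vehicle array 4. It was 71.4% with array weights and 77.9%, with a median of −0.04, without vehicle arrays 3 and 4, where 56.2% and 56.9% of all tested genes lay below 0. It was 3.90% after centring on the hybridization controls, where 16.0% of all tested genes lay below 0. On the poly-A controls all 77 lay below 0, as did nearly all tested genes. Each centring moved the differences of all genes by the same amount. Without centring, the differences of the 77 proteins ran from −0.11 in MRPL49, a large-subunit protein, to 0.19 in MRPS10, a small-subunit protein. All 77 intervals lay within 1.5-fold, and the widest reached 1.26-fold. MRPS10 read 11.60, 11.62, 11.49, 11.81 and 11.70 with doxycycline and 11.55, 11.44, 11.48, 11.42 and 11.41 with vehicle (unadjusted p = 0.0134). The groups overlapped in 1 doxycycline array, the third, and the other probe set of MRPS10 differed in the opposite direction, by −0.08. MRPL3, a large-subunit protein, read 14.50 ± 0.04 on doxycycline arrays and 14.47 ± 0.03 on vehicle arrays (mean ± SD of 5 each). MRPS27 of the small subunit differed by −0.02 (SE 0.05).

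The factors that work with this ribosome had wider intervals, of which 24 of 28 lay within 25%, against 75 of the 77 ribosomal proteins. The median over 28 mitochondrial translation factors and tRNA synthetases was 0.04, from −0.15 in GATB, part of the enzyme that makes mitochondrial glutaminyl-tRNA, to 0.15 in the initiation factor MTIF3, and all 28 intervals lay within 1.5-fold. TUFM, the elongation factor that delivers tRNAs, differed by −0.02 (95% interval 0.884-fold to 1.11-fold). Among 36 genes of mitochondrial DNA maintenance and transcription, the median was −0.01. TFAM, which packages and transcribes mitochondrial DNA, differed by 0.12, and its interval ran from −0.19 to 0.44, among the wider ones of the well expressed genes. MTPAP, the mitochondrial poly(A) polymerase, read 9.59 ± 0.14 with doxycycline and 9.39 ± 0.14 with vehicle, a difference of 0.20 at an unadjusted p of 0.0349. The other probe set of MTPAP read 8.04 and 8.14 and differed in the opposite direction, by −0.10.

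Of 70 tested subunits of the respiratory chain and ATP synthase, 52 (74.3%) had a difference below 0, and the median was −0.03. Below 0 lay 52.1% of all tested genes and 55.5% of those at a level of 13 or more. The median level of the 70 was 13.7. By complex, 25 of 33 subunits of complex I, 8 of 10 of complexes II and III with cytochrome c, 8 of 11 of complex IV and 11 of 16 of ATP synthase lay below 0. The size was small, since 69 of the 70 intervals lay within 25% and the widest, of ATP5F1C, reached 1.32-fold. The number below 0 ran from 45 to 63 of the 70 when 1 array was left out. Without vehicle arrays 3 and 4 together, the share was 77.1%, with a median of −0.03, against 56.9% of all tested genes. That 77.1% was close to the 77.9% of the mitochondrial ribosomal proteins on the same arrays. The share of the subunits was 63.8% when all probe sets of a gene were averaged, against 47.9% of all tested genes. It was 64.7% without probe sets whose names end in _s_at or _x_at, against 54.2% of all tested genes. When the arrays were centred on the hybridization controls, it turned to 10.0%, with a median of 0.05. That centring put 16.0% of all tested genes below 0 and moved the median of all genes to 0.08. Centring on the poly-A controls moved that median to −0.32 and put all 70 below 0. The subunits share arrays and are not replicates of one another, and no test of the list was made.

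COX7A2, a nuclear-encoded subunit of complex IV, was the mitochondrial gene with the smallest p. It read 14.32, 14.24, 14.32, 14.30 and 14.28 with doxycycline and 14.41, 14.44, 14.42, 14.45 and 14.46 with vehicle. Every doxycycline array lay below every vehicle array, as in 0.205% of all tested genes in either direction. The difference was −0.14 (SE 0.04, unadjusted p = 0.00489, the ninth smallest of 10267), or 0.851-fold to 0.964-fold by its interval, and it ran from −0.15 to −0.13 with 1 array left out. COX7C of the same complex differed by −0.14 (SE 0.08) and NDUFB3 of complex I by −0.14 (SE 0.06), both with overlapping groups. COX4I1, the first nuclear-encoded subunit of complex IV, differed by 0.03 (SE 0.05), and a dimmer probe set of it, at 6.36 and 6.57, by −0.21. Cytochrome c, CYCS, read 14.90 ± 0.05 with doxycycline and 14.91 ± 0.05 with vehicle, while 2 dimmer probe sets of it, near a level of 7, differed by 0.17 and 0.27.

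The remaining mitochondrial lists held few departures. Among 46 assembly factors of the respiratory chain the median was −0.01, all intervals lay within 1.5-fold, and LYRM7, a factor for complex III, differed by −0.12 at an unadjusted p of 0.0392. The 17 chaperones and proteases that answer unfolded proteins in the matrix had a median of 0.02 and intervals within 25%. HSPD1, the chaperonin HSP60, read 15.73, 15.77, 15.80, 15.70 and 15.71 with doxycycline and 15.77, 15.71, 15.70, 15.75 and 15.65 with vehicle, and the groups overlapped. A dimmer probe set of HSPD1, at 8.71 and 8.83, differed by −0.12. The matrix protease LONP1 differed by 0.06 (0.895-fold to 1.22-fold) and CLPP by 0.03 (0.907-fold to 1.14-fold). The medians of protein import (26 genes), of fusion, fission and mitophagy (18 genes) and of pyruvate dehydrogenase with the TCA cycle (17 genes) were −0.01, 0.02 and 0.01, and all of their intervals lay within 1.5-fold.

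**Figure D3:**
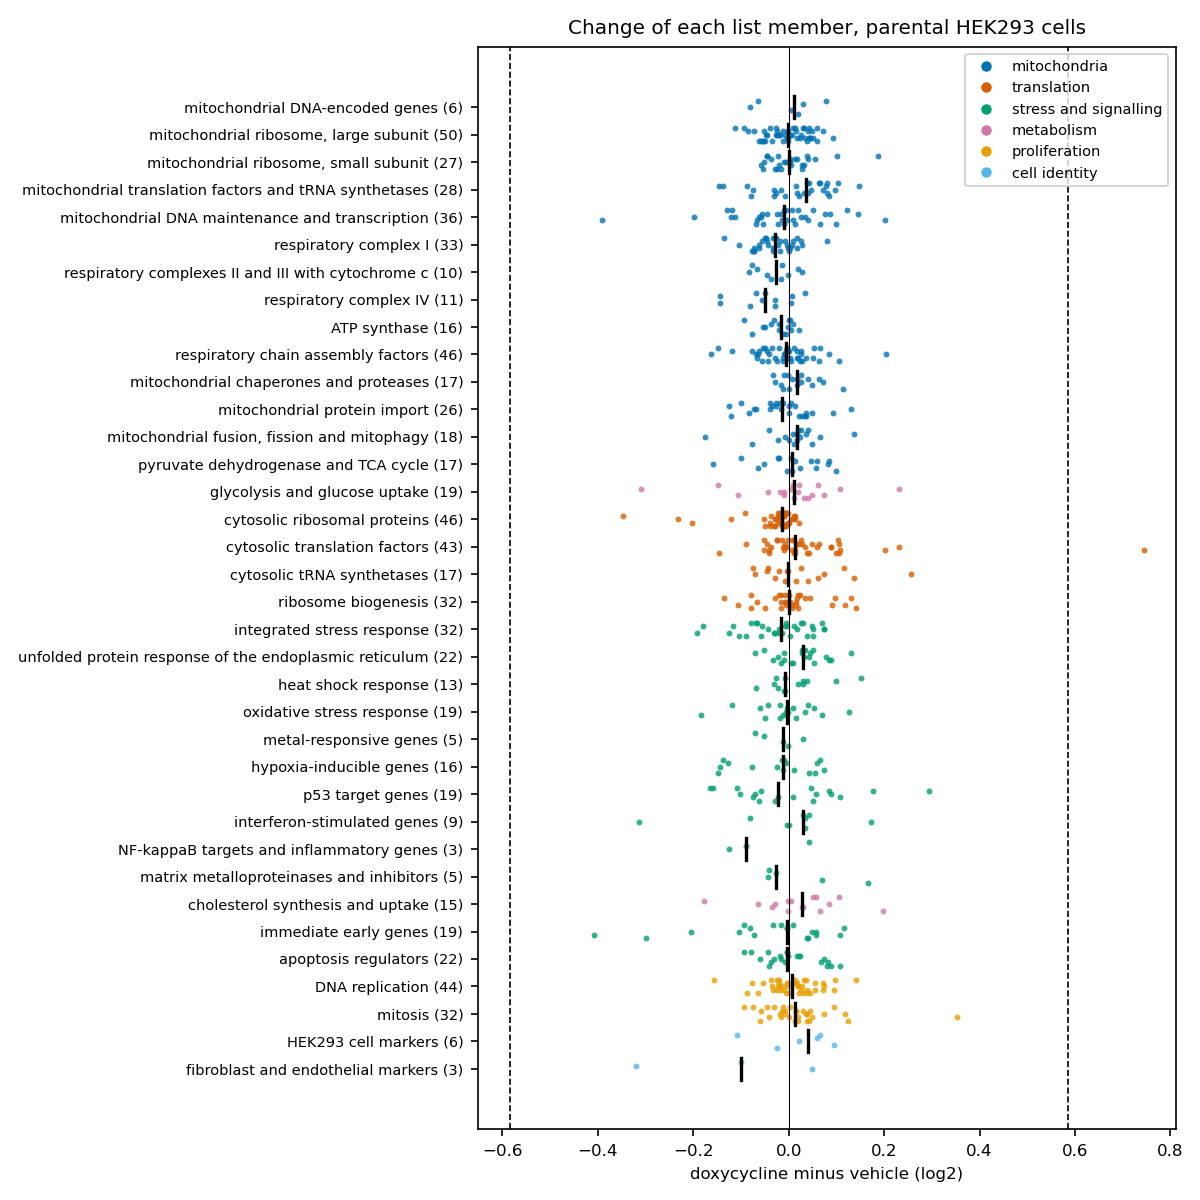
Difference between doxycycline and vehicle (log2, x axis) for each tested member of 36 gene lists (rows, number of tested members in brackets), with black bars at the list medians and dashed lines at 1.5-fold. All list medians lie between −0.10 and 0.04, and 1 point, EIF3C among the translation factors, lies past a dashed line.

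The cytosolic translation genes, which make the ribosomes that tetracyclines do not target, comprised 138 tested members of 4 lists. None passed an adjusted threshold and none had an unadjusted p under 0.05. The median level of the 138 was 13.3, and such a p was had by 2.06% of all tested genes but 0.222% of those above a level of 12. Finding none is therefore near the share of all genes. The interval of the 138 lay within 25% in 122, within 1.5-fold in 132 and within 2-fold in 137. The 46 cytosolic ribosomal proteins, whose median level was 15.7 near the top of the scale, had a median difference of −0.01. Of these 46, 39 (84.8%) lay below 0, against 52.1% of all tested genes and 55.5% of those at a level of 13 or more. The share of the 46 ran from 65.2% to 87.0% with 1 array left out and was 67.4% without vehicle arrays 3 and 4. It was 64.4% when all probe sets of a gene were averaged, 65.2% after quantile normalization and 73.9% with array weights. In the same order, 47.9%, 51.4% and 56.2% of all tested genes lay below 0. Centring on the hybridization controls turned the share of the 46 to 10.9%, with a median of 0.07, where 16.0% of all tested genes lay below 0. On the poly-A controls all 46 lay below 0, as did nearly all tested genes. The lowest was RPL7 at −0.35 (SE 0.23), whose probe set read near 5, and EEF2, the elongation factor that moves the ribosome along the mRNA, differed by −0.04 (0.905-fold to 1.04-fold).

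The widest intervals among the translation genes came with vehicle array 3. EIF3C, a subunit of the initiation factor that holds the small ribosomal subunit, read 5.49, 6.27, 5.17, 5.07 and 5.69 with doxycycline and 5.25, 5.24, 2.40, 5.58 and 5.50 with vehicle. The difference was 0.74 (SE 0.55) with all arrays and 0.15 without vehicle array 3. EPRS1, the glutamyl-prolyl-tRNA synthetase, also read lowest on that array, at 11.88, and differed by 0.26 with all arrays and 0.03 without it, while 2 other probe sets of EPRS1 differed by 0.63 and 0.03. IARS1, the isoleucyl-tRNA synthetase, was the other list gene whose groups did not overlap, with 13.97 to 14.06 for doxycycline and 13.91 to 13.96 for vehicle, a difference of 0.07 at an unadjusted p of 0.106. In ribosome biogenesis (32 genes) the median was 0.00 and all intervals lay within 1.5-fold, with BYSL, a factor for the small subunit, lowest at −0.14.

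The integrated stress response, which cells mount when mitochondrial translation fails, had 32 tested genes and none at an unadjusted p under 0.05. In this it stood near the 2.06% of all tested genes and the 0.633% of those at levels from 10 to 12. Its median difference was −0.02, and all 32 intervals lay within 1.5-fold. ATF4, its central transcription factor, read 14.40, 14.26, 14.31, 14.44 and 14.45 with doxycycline and 14.41, 14.41, 14.50, 14.20 and 14.37 with vehicle, with overlapping groups and a 95% interval of −0.15 to 0.14. DDIT3, the stress factor CHOP, read 6.26, 6.20, 6.18, 6.17 and 6.35 with doxycycline and 6.29, 6.38, 6.28, 6.18 and 6.19 with vehicle (0.897-fold to 1.07-fold). The groups overlapped in both. The ATF4 targets ASNS, which makes asparagine, and TRIB3, a pseudokinase, differed by 0.01 and −0.07. SESN2, a restrainer of the growth kinase mTORC1, differed by 0.05 (0.884-fold to 1.22-fold). Its other probe set, at 8.77 and 8.45, differed by 0.32, outside that interval, and was not tested in the fit of 1 probe set a gene. PSAT1 of serine synthesis differed by −0.02 and the mitochondrial folate enzyme MTHFD2 by −0.06. The extremes of the list were VLDLR, a lipoprotein receptor, at −0.19 and the kinase EIF2AK1, which relays mitochondrial stress, at 0.07.

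GDF15, a secreted cytokine raised by mitochondrial stress, and CHAC1, a glutathione-degrading target of ATF4, did not reach the filter. GDF15 read 2.24 to 2.35 with doxycycline and 2.24 with vehicle, near the lowest value of the table, so both groups were at background. CHAC1 read 3.98 ± 0.26 with doxycycline and 4.16 ± 0.17 with vehicle.

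Other stress programmes gave the same picture at different precision. In the unfolded protein response of the endoplasmic reticulum (22 genes) the median was 0.03 and all intervals lay within 25%. HSPA5, the chaperone BiP, read 13.98 to 14.04 with doxycycline and 13.72 to 14.06 with vehicle, with vehicle array 4 the lowest. In the heat shock response (13 genes) the median was −0.01, and HSPA4, a nucleotide exchange factor for HSP70, read 13.14, 13.34, 13.22, 13.35 and 13.33 against 13.16, 13.06, 13.24, 13.01 and 13.17 (difference 0.15, unadjusted p = 0.0322). In the oxidative stress response (19 genes) the median was −0.00, and HMOX1, the haem oxygenase, had the widest interval of the marker genes described here, 0.716-fold to 1.31-fold, with 8.28 on doxycycline array 4 and 9.04 to 9.45 on the other doxycycline arrays. SOD2, the mitochondrial superoxide dismutase, was lowest of that list at −0.18 (SE 0.14). The metal-responsive genes (5 tested), to which a metal-binding tetracycline could be relevant, had a median of −0.01 and intervals within 25%.

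Targets of p53 and of the hypoxia-inducible factors, which answer damage and low oxygen, also passed no adjusted threshold. CDKN1A, the cell cycle inhibitor p21, read 7.97, 7.96, 7.96, 7.81 and 8.08 with doxycycline and 8.18, 8.17, 8.11, 8.11 and 8.02 with vehicle. The groups overlapped through the highest doxycycline and the lowest vehicle array, both numbered 5, and the difference was −0.16 (SE 0.06, unadjusted p = 0.0197). Another p53 target, PHLDA3, differed by −0.17 at an unadjusted p of 0.0422, and the list as a whole (19 genes) had 10 members below 0 and a median of −0.02. ZMAT3, an RNA-binding target of p53, had the highest difference, 0.29 (SE 0.37), and was −0.03 without vehicle array 3, which read 7.28. Among 16 hypoxia-inducible genes the median was −0.01, the glucose transporter SLC2A1 was lowest at −0.15 (0.776-fold to 1.05-fold) and VEGFA, the vascular growth factor, differed by −0.01 (0.862-fold to 1.14-fold).

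A set of 32 marker genes, with members of each of these programmes, was followed array by array. Of these, 25 were tested, 14 of them lower and 11 higher with doxycycline, and their median absolute difference was 0.03. The largest was that of CDKN1A, and it was the only one at an unadjusted p under 0.05. The 95% interval lay within 25% in 22 of the 25 genes and within 1.5-fold in all 25.

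**Figure D4:**
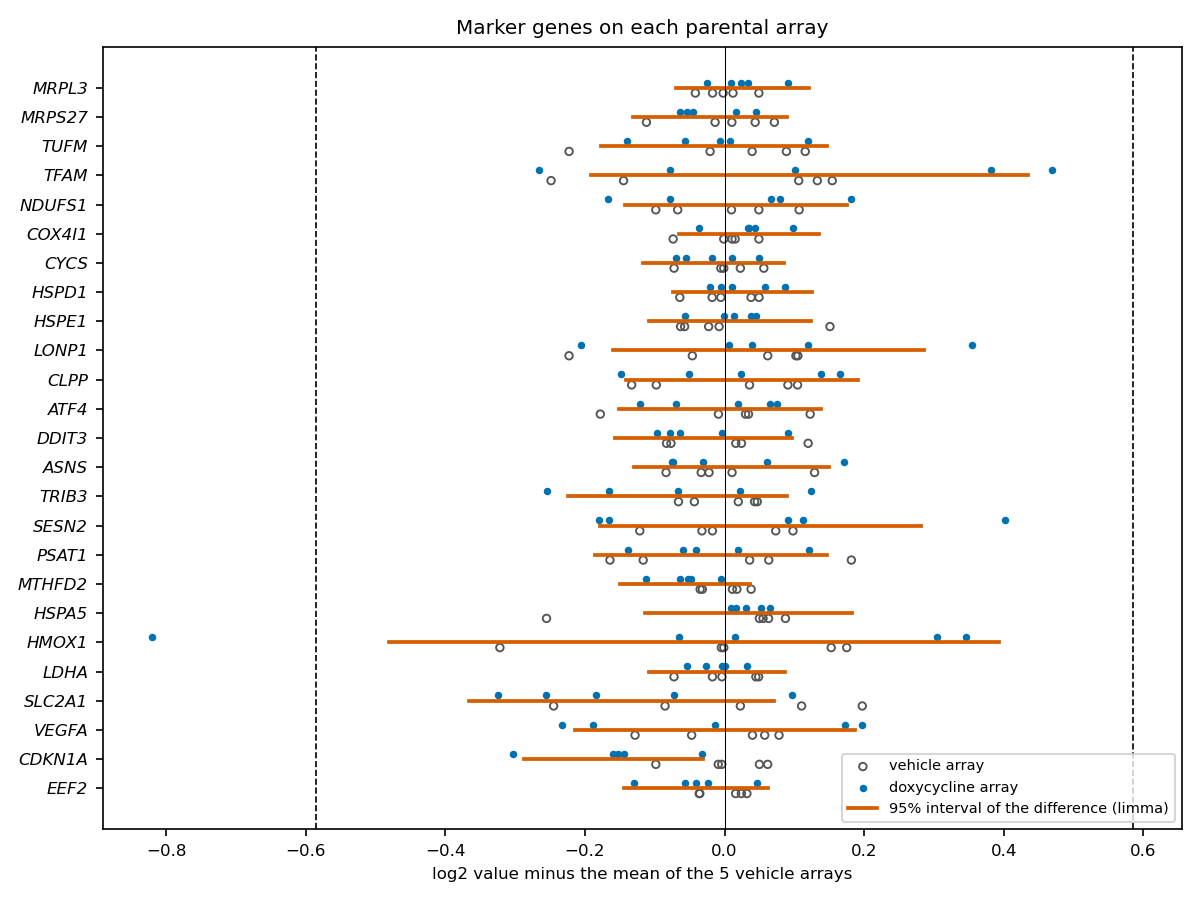
Log2 values of 25 marker genes on each parental array, given relative to the mean of the 5 vehicle arrays (x axis), with open circles for vehicle arrays, filled circles for doxycycline arrays, orange bars for limma's 95% interval of the difference and dashed lines at 1.5-fold. All 25 intervals lie inside the dashed lines, and CDKN1A is the only gene whose interval does not include 0.

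The interferon, NF-kappaB and metalloproteinase genes were mostly below the filter in these cells. Of 31 interferon-stimulated genes with a probe set, 9 were tested, with a median of 0.03, and HERC6, an interferon-induced ligase, differed by −0.31 at a level near 4.7 (unadjusted p = 0.0328). Of 16 genes of the NF-kappaB pathway 3 were tested and of 16 matrix metalloproteinases and inhibitors, a family that tetracyclines inhibit as proteins, 5 were tested, with intervals within 1.5-fold in all of these 8. The immediate early genes (19 tested) had a median of −0.00, from −0.41 in EGR1 (SE 0.24), which read 3.60 to 5.03 with doxycycline and 4.29 to 5.15 with vehicle, to 0.12 in MYC. The doxycycline mean of EGR1, 4.27, lay under the filter, so this gene entered through the vehicle arrays alone and its difference is poorly defined. Apoptosis regulators (22 tested) had a median of −0.00, with 21 intervals within 1.5-fold.

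Metabolic and proliferation genes were compared as well, because slowed respiration can shift cells toward glycolysis. Of 19 genes of glycolysis and glucose uptake, the glucose transporter SLC2A3 was the 1 member at an unadjusted p under 0.05 (difference −0.31, unadjusted p = 0.0318), and lactate dehydrogenase, LDHA, differed by −0.01 (0.928-fold to 1.06-fold). The 15 genes of cholesterol synthesis had a median of 0.03. The 44 DNA replication genes and the 32 mitosis genes had medians of 0.01 each and none at an unadjusted p under 0.05, where 2.06% of all tested genes had one. TOP2A, the mitotic topoisomerase, had the highest difference of these at 0.35 (SE 0.26), which became 0.14 without vehicle array 3, and another of its probe sets differed by −0.02.

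Counted over all lists, 9 of 771 tested members had an unadjusted p under 0.05, with 3 higher (MRPS10, HSPA4 and MTPAP) and 6 lower (COX7A2, CDKN1A, SLC2A3, HERC6, LYRM7 and PHLDA3), where 2.06% of all tested genes had one. In 28 of the 36 lists with a tested gene no member did, and in 24 lists no interval reached 1.5-fold. Within 25% lay 676 of the 771 intervals, within 1.5-fold 754 and within 2-fold 768, beside 76.5%, 95% and 99.4% of all tested genes.

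The genes with the 5 largest differences in each direction belonged to none of these lists and had low levels. In absolute size, the list member EIF3C, at 0.74, exceeded FZD10 and LRRC43 among the falls given below. SEMA3G, a secreted semaphorin, read 5.38, 4.76, 4.79, 5.27 and 5.46 with doxycycline and 2.72, 4.39, 3.85, 4.52 and 4.20 with vehicle, without overlap (1.20, SE 0.31, unadjusted p = 0.00251). BSPRY, a protein with B-box and SPRY domains, had the smallest p and read 4.67, 5.03, 4.99, 5.08 and 5.08 with doxycycline and 3.45, 3.76, 4.66, 3.45 and 4.29 with vehicle, also without overlap (1.05, SE 0.22). In both genes, and in HOXA-AS3 below, the vehicle mean lay under 4.5, near background. These genes passed the filter through the doxycycline arrays alone, where they were higher. That selects for a difference, so its size is poorly defined and its p and overlap are no independent support. The next largest positive differences were those of HOXA-AS3, a non-coding RNA of the HOXA cluster (0.88, SE 0.34), HPCAL4, a neuronal calcium-binding protein (0.85, SE 0.31), and the golgin GOLGA8A (0.83, SE 0.36).

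On the lower side stood SERPINB9, an inhibitor of granzyme B (−0.86, SE 0.33), the non-coding RNAs LINC00491 (−0.75, SE 0.24) and TMEM132D-AS1 (−0.75, SE 0.20), the Wnt receptor FZD10 (−0.65, SE 0.36) and LRRC43, a leucine-rich repeat protein (−0.62, SE 0.27). The doxycycline means of TMEM132D-AS1, FZD10 and LRRC43 lay under 4.5, at 4.21, 4.36 and 4.05, so that these genes passed the filter through the vehicle arrays alone and their differences are as poorly defined. LINC00491 was the only one of these whose groups did not overlap, with 4.43 to 5.45 for doxycycline and 5.52 to 6.67 for vehicle. The remaining genes among the 5 smallest p were BCL6B, a transcriptional repressor (0.58, SE 0.14, unadjusted p = 0.00205), and NKD2, a Wnt antagonist (−0.32, SE 0.08, unadjusted p = 0.00268). Another probe set of BCL6B, brighter in the parental cells at 7.56 and 7.45, differed by 0.11. Above a level of 8, 73 genes had an unadjusted p under 0.05, and the largest of their differences was 0.55, in GATAD1, a chromatin-associated zinc finger protein.

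The same exposure to doxycycline in the EGFP-ZFP36 line gives the scale on which these values can be read. Over the same 10267 genes the SD of the induced minus mock-induced differences was 1.21, against 0.10 in parental cells. The difference between the 2 doxycycline effects, tested over all 20 arrays, passed a Bonferroni-adjusted p under 0.01 in 5030 genes (49.0%), with the parental effect above the other in 2355 and below it in 2675. The share with the parental effect above was 46.8%, and it was 65.9% and 66.2% when the arrays were centred on the hybridization and poly-A controls. The paper reports another seeding dilution and growth time for the parental cells. In the EGFP-ZFP36 line, induced flasks were less confluent than mock-induced ones, with more floating and rounded cells. Induced cells of that line were sorted for fluorescence and mock-induced cells for its absence. Passages are named for that line only, so a difference in passage is not known. The 2 lines also differ in the transgene, and these sources cannot be told apart.

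Of the 25 marker genes, 16 were among the genes with such a difference. The marker genes and the lists were chosen with earlier results of these data known, so these counts are not independent of that choice. CYCS read 14.65 ± 0.06 on mock-induced and 10.23 ± 0.16 on induced arrays of the EGFP-ZFP36 line, a difference between the lines of 4.41 (SE 0.09, limma Bonferroni-adjusted p = 4.02e-18). SESN2 read 8.04 ± 0.15 and 11.44 ± 0.04 on the same arrays (difference between the lines −3.34, SE 0.13, adjusted p = 1.25e-12). DDIT3 differed by 2.44 and ASNS by 2.04 in that line, beside −0.03 and 0.01 in parental cells, and CDKN1A by −2.22 beside −0.16. By list, the difference was called for 43 of 77 mitochondrial ribosomal proteins, 19 of 32 genes of the integrated stress response and 1 of 46 cytosolic ribosomal proteins, beside 49.0% of all tested genes. The median level was 15.7 for the 46, near the top of the scale where arrays compress changes, and 11.9 for the 77, so these counts are not on equal terms. ZFP36 itself stayed below the filter in parental cells, with 3.03 to 4.54 for doxycycline and 2.77 to 4.31 for vehicle.

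**Figure D5:**
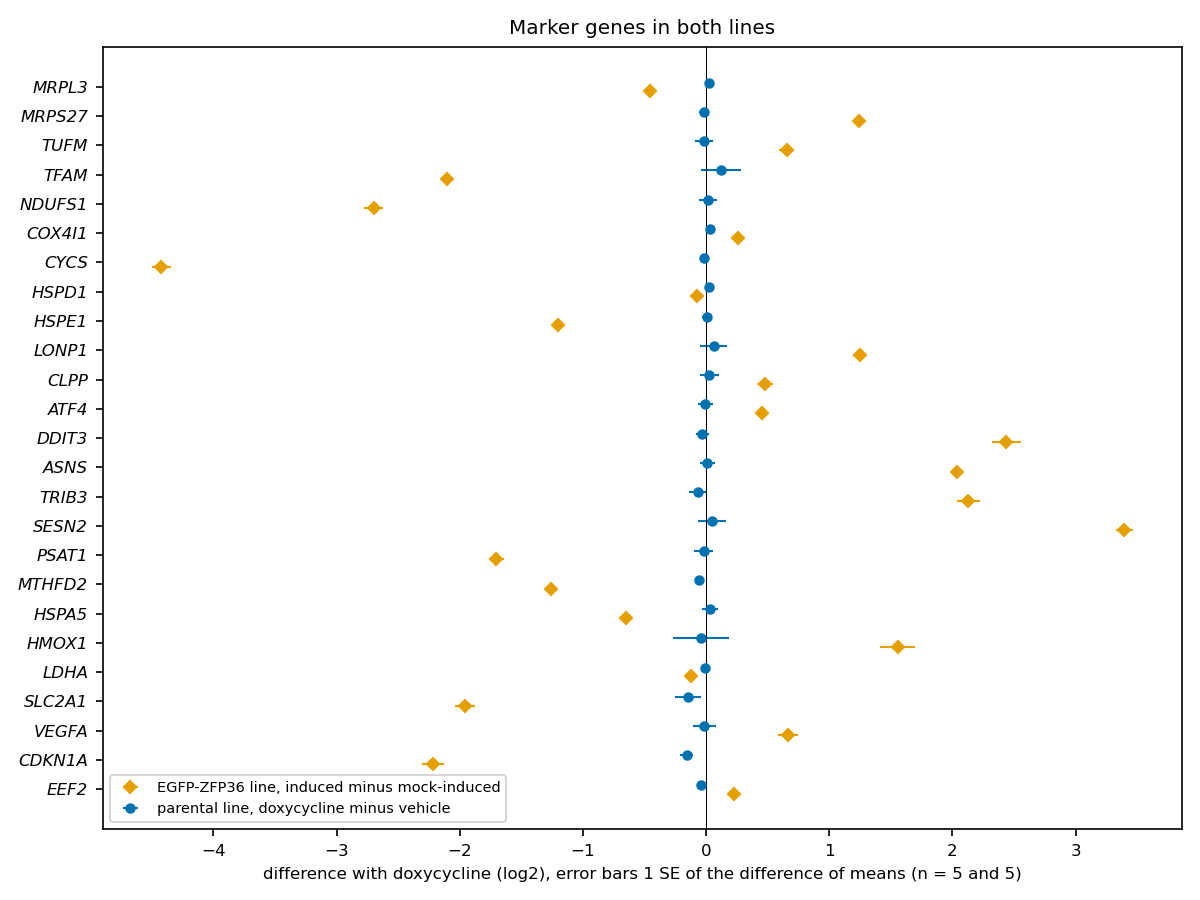
Difference with doxycycline (log2, x axis) of 25 marker genes in the parental line (circles) and in the EGFP-ZFP36 line (diamonds), with bars of 1 SE of the difference between group means of 5 arrays each. The parental points run from −0.16 to 0.12, while the points of the EGFP-ZFP36 line run from −4.42 for CYCS to 3.40 for SESN2.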

How the data were processed

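Total RNA of the 10 parental arrays and the 10 arrays of the EGFP-ZFP36 line was hybridized to Affymetrix U133 Plus 2.0 arrays, read with GeneChip Command Console 1.1 and normalized by the authors with GCRMA, for which no version is named. They deposited log2 values of 50441 probe sets, from 2.19 to 16.6. The number of arrays limits the precision, and GCRMA leaves no measure of counts. By the platform's annotation 38070 probe sets name 1 gene, 1423 several, 10886 none and 62 are controls, and 38018 of the first were found in the RefSeq gene table. Each gene is represented by its brightest probe set, judged by the mean of all 20 arrays. The filter of 4.5 is that of the study.

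Doxycycline was compared with vehicle by lmFit and eBayes of limma 3.58.1 in R 4.3.3 on the 10 parental arrays, which gave the p-values, 95% intervals and SEs. The effects of the 2 lines were compared over 20 arrays. Genes were called at a Bonferroni-adjusted p under 0.01. Array measures were compared by exact two-sided permutation of 5 against 5 arrays, which can give no p below 0.00794. The summaries used Python 3.11.15, pandas 2.3.3, numpy 2.4.6, scipy 1.17.1 and matplotlib 3.10.9. The fits were tested on simulated data. At most 1.60% of values above 5 were identical between any 2 parental arrays.

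The 37 gene lists (1009 genes, 885 with a probe set of their own) and 32 marker genes were written from textbook knowledge, and with the comparison they were chosen with earlier results of these data known. Of the marker genes 28 had such a probe set and 25 were tested. Named are the marker genes, the 5 smallest p, the 5 largest differences each way and, in each list, the smallest p and both extremes. GATAD1 and IARS1's lack of overlap were picked out after their values were seen. Genes without a probe set of their own, HSPA1A, MT2A, MT1X and RPLP0 among the markers, were not analysed here. Alternatives covered the choice of probe set, the filter, the test, the scaling, the replicate block and leaving out arrays.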

Additional observations from a re-analysis of the deposited data

Results flagged for a closer look

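Among the tested genes chosen for naming and the 7 array measures, 252 groups of 5 arrays were searched for an array set apart from the other 4, and 15 groups had one, where chance flags about 1 in 20 groups. In each, the gap from that array to the next is given in brackets as a share of the range of its group.

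Vehicle array 3 was the one set apart for EIF3C, with 2.40 against 5.24 to 5.58 on the other vehicle arrays (0.895), for MIEF1, a regulator of mitochondrial fission, with 9.91 against 10.48 to 10.66 (0.766), for DLST of the TCA cycle with 10.89 against 11.09 to 11.17 (0.716) and for the phosphatase CDC25A with 11.71 against 11.34 to 11.40 (0.841). Vehicle array 4 was set apart for HSPA5, with 13.72 against 14.02 to 14.06 (0.891), and for MRPL23 of the mitochondrial ribosome with 12.28 against 12.49 to 12.58 (0.713). Vehicle array 5 was set apart for HSPE1, the partner of HSP60, with 14.39 against 14.18 to 14.23 (0.742), and for TBRG4 with 6.27 against 5.17 to 5.46 (0.733). Vehicle array 1 was set apart for MT-ATP6, with 15.91 against 16.06 to 16.11 (0.779).

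Among the doxycycline arrays, BSPRY read 4.67 on array 1 and 4.99 to 5.08 on the others (0.774), and LRRC43 read 4.69 on array 2 and 3.77 to 4.02 on the others (0.725). Array 3 was set apart for TBRG4, with 4.46 against 5.17 to 5.42 (0.739), and for the transcription factor KLF2, with 6.53 against 6.41 on each of the others (1.0). Those others hold an identical KLF2 value, so the 1.0 follows from the tie. Some doxycycline values of BSPRY and COX19 are also identical, and such ties can narrow the spread of a group. COX19, an assembly factor of complex IV, read 4.58 on array 4 and 4.83 to 4.89 on the others (0.792), and PRIM2, a primase subunit, read 9.05 on array 5 and 9.32 to 9.34 on the others (0.92).

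The effect of doxycycline differed between the lines in 5030 genes by the test of the difference over 20 arrays in limma. The largest such difference of parental minus EGFP-ZFP36 effect was 4.406 among the mitochondrial marker genes (CYCS), −3.344 among the stress and signalling marker genes (SESN2) and 1.809 among those of metabolism (SLC2A1).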

How the results depend on the processing

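No gene passed the Bonferroni threshold for doxycycline against vehicle under any alternative run, and 1 gene passed a Benjamini-Hochberg adjusted p under 0.05 when the arrays were centred on the hybridization controls. The count at an unadjusted p under 0.05 was 430 when every probe set was tested alone, ran from 183 to 321 with 1 array left out (the highest without vehicle array 4) and was 287 without vehicle arrays 3 and 4, an alternative chosen after seeing the data. Intervals within 1.5-fold numbered 17555 of 19969 with every probe set, 18267 of 19353 without the filter, 9617 to 9791 with 1 array left out and 19 after centring on the poly-A controls. That centring moved the median of all genes to −0.32 and the median half-width to 0.57, and centring on the hybridization controls gave a half-width of 0.32, since the spread of the controls enters every gene. The difference between the lines was called for 7727 of 19969 probe sets, 3171 genes after centring on the hybridization controls, 1729 on the poly-A controls and 4718 to 5046 with 1 array left out.

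The study treated cells in pairs by day, but the labels do not tie replicate numbers to days. Deviations of same-numbered arrays correlated at −0.06 to 0.20, against −0.21 to 0.22 for other pairs, and 2 of 5 doxycycline arrays correlated best with their own number. With the number as a fixed replicate block 0 genes were called, 306 had an unadjusted p under 0.05, 9855 intervals lay within 1.5-fold and 4122 genes differed between the lines, and a random block gave 0, 217, 9764 and 5316.

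Array values compress changes of the brightest probe sets by an amount not measured here, and genes under 4.5 gave no bound.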
